A study of Mus musculus with 15 samples.

Results

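Ephx1, Tmem44, Pik3ip1, Exoc4, Dglucy, Slc19a2, Dyrk3, Ddias, Ddit4l and Inka2 are 10 genes that were higher in irradiated than in untreated mouse submandibular glands and stand outside a list of 28 established targets of p53. They are 10 of 39179 genes in the count tables and 10 of the 14304 genes tested. They were picked because they were higher in the irradiated group (IR) than in the untreated group (NT), so their values in that contrast are a description and carry no test. None was removed by the filter on low counts.

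The glands came from adult male C57BL/6 mice, and the RNA of 5 groups was sequenced, with 3 libraries per group and 15 in all. Irradiated glands were taken 7 days after local irradiation. In IR+Shh, IR+Gli1 and IR+GFP, the gene for Shh, Gli1 or green fluorescent protein had been transferred into the irradiated gland; IR had no transfer, and NT had neither. Shh is a secreted protein that starts Hedgehog signalling and Gli1 a transcription factor at the end of that pathway, and the labels give neither the vector nor the species of the transferred genes. In every group there were 2 libraries whose counts differed by less than the sampling noise of reads (mean chi-square per gene 0.215 to 0.337, against 22.03 to 223 in the 10 other pairs within groups), and such a pair was counted as 1 sample. This left n = 2 samples per group: IR+Shh 1 and 3 with IR+Shh 2, IR+Gli1 1 and 2 with IR+Gli1 3, IR+GFP 1 and 2 with IR+GFP 3, IR 1 and 2 with IR 3, and NT 2 and 3 with NT 1. No label says that samples came from separate animals, so the spread behind each p-value is that between these samples and may be technical.

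Gene reads per library ranged from 18205941 to 41064723. Levels are given as CPM with TMM scaling, means with their SD, and log2 fold changes with the standard error of the fit. The 20 highest genes took 28.5% to 44.0% of gene reads in the IR+Gli1 libraries and 54.6% to 61.5% in the others, and the TMM factors were 1.72 and 1.31 in IR+Gli1 and 0.866 to 0.994 elsewhere. The 6 granular convoluted tubule genes listed had reads in every sample, as did the 6 acinar genes apart from Smgc, which was at 0 in IR+Gli1 3 and in both IR+Shh samples. Genes of the neighbouring sublingual gland summed to 17386 CPM in NT 2 and 3, to 111 CPM in IR+GFP 1 and 2 and to under 10 CPM in every other sample. Mouse Gli1 was at 3.49 ± 1.07 CPM in IR+Shh and at 0.615 ± 0.0804 CPM in the group with the label IR+Gli1, beside 0.682 ± 0.180 CPM in IR+GFP, 0.657 ± 0.0657 in IR and 0.560 ± 0.0665 in NT (SD, n = 2 each), and Shh had 0 reads in all samples, so these reads do not check those labels.

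The 10 genes belong to different processes. Ephx1 encodes microsomal epoxide hydrolase, which turns reactive epoxides into diols. Slc19a2 encodes a high-affinity transporter of thiamine (vitamin B1), and Dglucy encodes D-glutamate cyclase of mitochondria, which acts on D-glutamate. Exoc4 is a subunit of the exocyst, the complex that tethers secretory vesicles to the plasma membrane before fusion. Pik3ip1 is a membrane protein that restrains phosphoinositide 3-kinase (PI3K), and Ddit4l (Redd2) restrains the growth kinase complex mTORC1. Dyrk3 is a kinase that dissolves stress granules and other condensates, Inka2 binds and inhibits the kinase Pak4, and Ddias is a DNA damage-induced protein that limits apoptosis. Tmem44 encodes a transmembrane protein. In DNA damage, the transcription factor p53 is stabilised and induces genes of cell cycle arrest, repair and cell death; human SLC19A2 and INKA2 have been described as p53 targets, although their mouse genes are not in the list of 28.

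Ephx1, Dglucy and Slc19a2 encode enzymes and a transporter of small molecules. Ephx1 (ENSMUSG00000038776, chr1:180976210-181020904, minus strand, GRCm38) had 257 and 218 CPM in IR+Shh, 259 and 227 in IR+Gli1, 225 and 223 in IR+GFP and 211 and 232 in IR, against 40.7 and 42.6 CPM in NT. All 8 irradiated samples lay above both NT samples, the lowest of them 4.95-fold above the higher NT sample. The IR mean was 5.32-fold that of NT (222 ± 14.9 against 41.7 ± 1.35 CPM, SD, n = 2 per group; log2 fold change 2.41 ± 0.13). Per kilobase of annotated exon Ephx1 had the highest level of the 10 in every group, at 114 CPM per kilobase in IR and 21.4 in NT, and Dglucy came next at 8.39 in IR and 3.33 in NT. In bulk tissue, more cells that express a gene and more RNA per cell cannot be told apart.

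Dglucy (ENSMUSG00000021185, chr12:100779057-100896981, plus strand) had 36.2 and 33.0 CPM in IR+Shh, 41.3 and 35.1 in IR+Gli1, 38.0 and 36.3 in IR+GFP and 37.4 and 39.8 in IR, against 17.2 and 13.4 CPM in NT. The irradiated samples lay between 33.0 and 41.3 CPM and did not overlap NT. Its IR mean was 2.52-fold that of NT (log2 1.34 ± 0.14). Slc19a2 (ENSMUSG00000040918, chr1:164249046-164265385, plus strand) had 22.6 and 18.1 CPM in IR+Shh, 22.3 and 19.2 in IR+Gli1, 20.9 and 18.8 in IR+GFP and 22.2 and 21.5 in IR, against 8.32 and 9.05 CPM in NT. All 8 irradiated samples lay above both NT samples, with an IR mean 2.52-fold that of NT (log2 1.33 ± 0.14). Both IR+GFP samples lay below both IR samples, while the other irradiated groups overlapped each other.

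Exoc4 (ENSMUSG00000029763, chr6:33249085-33973979, plus strand) had 87.9 and 71.8 CPM in IR+Shh, 67.7 and 82.5 in IR+Gli1, 80.8 and 89.5 in IR+GFP and 73.4 and 78.1 in IR, against 25.9 and 30.1 CPM in NT. The lowest irradiated sample was 2.25-fold above the higher NT sample, and the IR mean was 2.71-fold that of NT (log2 1.44 ± 0.14). Tmem44 (ENSMUSG00000022537, chr16:30511855-30550842, minus strand) had 17.5 and 15.5 CPM in IR+Shh, 18.8 and 20.1 in IR+Gli1, 17.8 and 20.3 in IR+GFP and 19.1 and 19.2 in IR, against 4.21 and 2.28 CPM in NT. Its 8 irradiated samples were all above NT, and the IR mean was 5.91-fold that of NT (log2 2.58 ± 0.23).

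**Figure D1:**
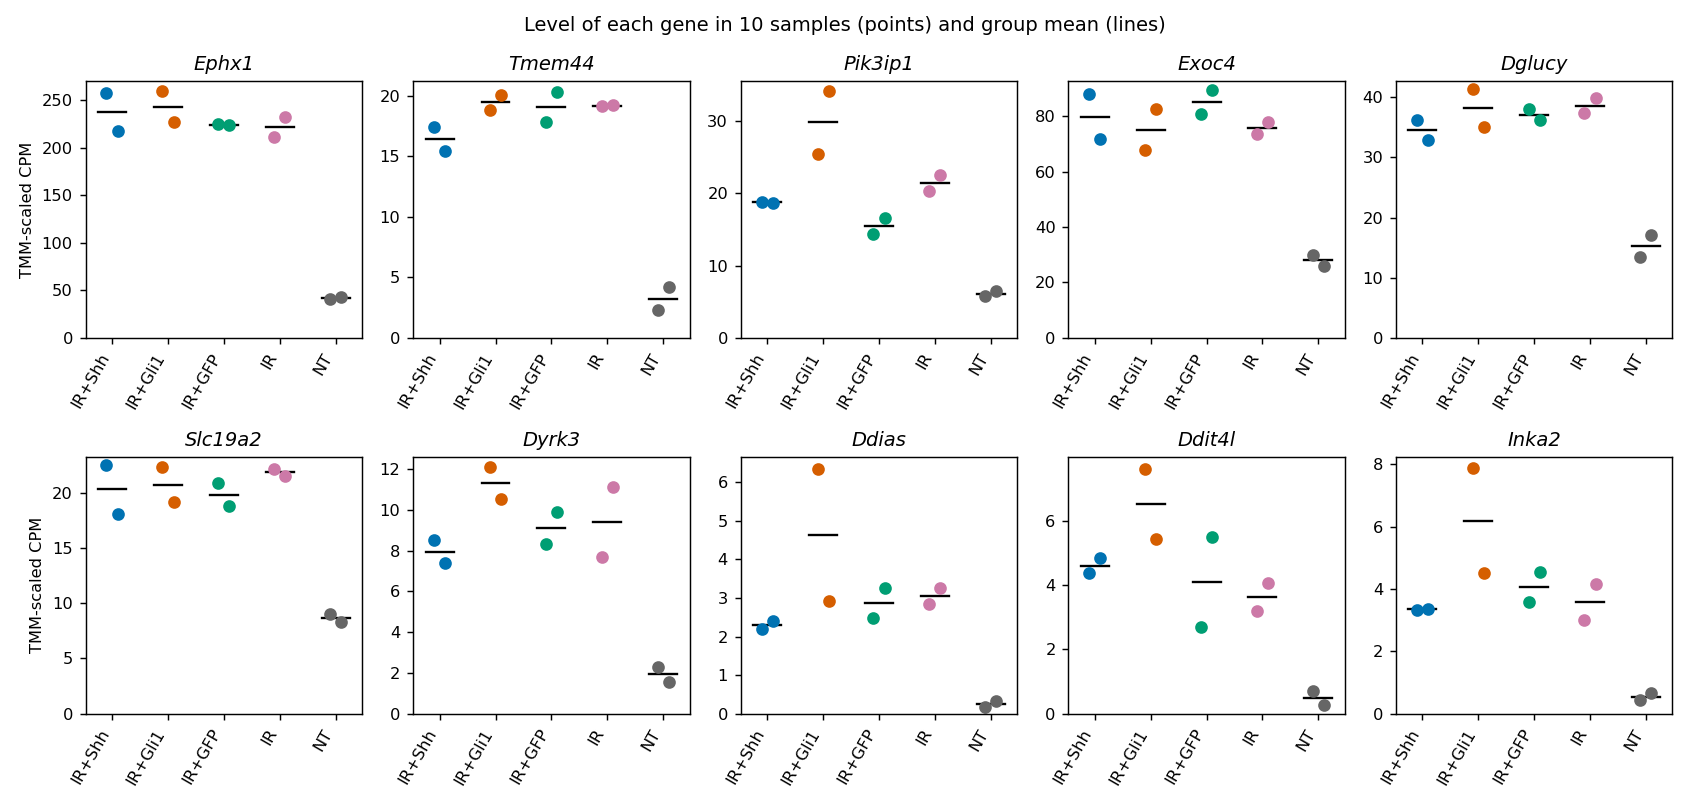
Level of each of the 10 genes in TMM-scaled CPM (y axes, each from 0) in the 10 samples (points) and group means (lines), for IR+Shh, IR+Gli1, IR+GFP, IR and NT. For each gene the 8 irradiated samples lie above both NT samples; the irradiated groups are closest together for Ephx1 and Slc19a2 and farthest apart for Ddias and Pik3ip1.

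The other 5 genes encode regulators of signalling, of condensates or of cell survival. Pik3ip1 (ENSMUSG00000034614, chr11:3330401-3342971, plus strand) had 18.8 and 18.7 CPM in IR+Shh, 25.5 and 34.1 in IR+Gli1, 14.4 and 16.6 in IR+GFP and 20.4 and 22.5 in IR, against 6.45 and 5.80 CPM in NT. No 2 of the 5 groups overlapped: IR+Gli1 was highest, followed by IR, IR+Shh, IR+GFP and NT. The IR mean was 3.50-fold that of NT (log2 1.81 ± 0.16).

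Dyrk3 (ENSMUSG00000016526, chr1:131127455-131138340, minus strand) had 8.53 and 7.38 CPM in IR+Shh, 12.1 and 10.6 in IR+Gli1, 8.31 and 9.91 in IR+GFP and 7.67 and 11.2 in IR, against 1.54 and 2.31 CPM in NT. The 2 IR samples span most of the range of the other irradiated groups. The IR mean was 4.89-fold that of NT (log2 2.27 ± 0.25).

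Ddit4l, Inka2 and Ddias had few reads in NT, which makes their ratios to NT the least precise of the 10. Ddit4l (ENSMUSG00000046818, chr3:137621612-137628333, plus strand) had 4.37 and 4.83 CPM in IR+Shh, 7.62 and 5.42 in IR+Gli1, 2.68 and 5.48 in IR+GFP and 3.19 and 4.06 in IR, against 0.257 and 0.698 CPM (7 and 23 reads) in NT. IR+GFP spans both IR+Shh and IR, and only the NT samples lie below 1 CPM. The IR mean was 7.59-fold that of NT (log2 2.87 ± 0.47).

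Inka2 (ENSMUSG00000048458, chr3:105704599-105720842, plus strand) had 3.33 and 3.36 CPM in IR+Shh, 7.87 and 4.51 in IR+Gli1, 3.58 and 4.56 in IR+GFP and 3.02 and 4.17 in IR, against 0.660 and 0.425 CPM (18 and 14 reads) in NT. IR+Gli1 1 and 2 was the highest sample, while IR+Gli1 3 lay within the range of IR+GFP. The IR mean was 6.63-fold that of NT (log2 2.72 ± 0.37). Ddias (ENSMUSG00000030641, chr7:92857525-92874247, minus strand) had 2.21 and 2.40 CPM in IR+Shh, 6.36 and 2.93 in IR+Gli1, 2.47 and 3.26 in IR+GFP and 2.85 and 3.25 in IR, against 0.330 and 0.182 CPM (9 and 6 reads) in NT. It showed the same split within IR+Gli1, and its IR mean was 11.9-fold that of NT (log2 3.57 ± 0.46). Leaving out 1 sample gave log2 3.19 to 4.02 for Ddias and 2.36 to 3.79 for Ddit4l, so the order of these ratios rests on few NT reads.

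Each of the 10 genes was higher than in NT, without overlap, in all 4 irradiated groups. In all genes tested the groups did not overlap in the higher direction in 26.5% for IR+Shh, 31.1% for IR+Gli1, 22% for IR+GFP and 23.9% for IR, each against NT; nothing is read from these counts, since the genes were chosen against the same NT samples. The median log2 fold change of the 10 against NT was 2.19 in IR+Shh (1.18 to 3.22), 2.55 in IR+Gli1 (1.26 to 4.20), 2.33 in IR+GFP (1.19 to 3.48) and 2.34 in IR (1.33 to 3.57). Over all genes tested the medians lay between -0.02 and 0.03. Without NT 2 and 3, the sample with reads of sublingual genes, the medians of the 10 were 2.16, 2.46, 2.21 and 2.19 in the same order of groups. With total-count scaling the IR+Gli1 value became 3.32, while the median of all genes in that contrast moved to 0.79.

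**Figure D2:**
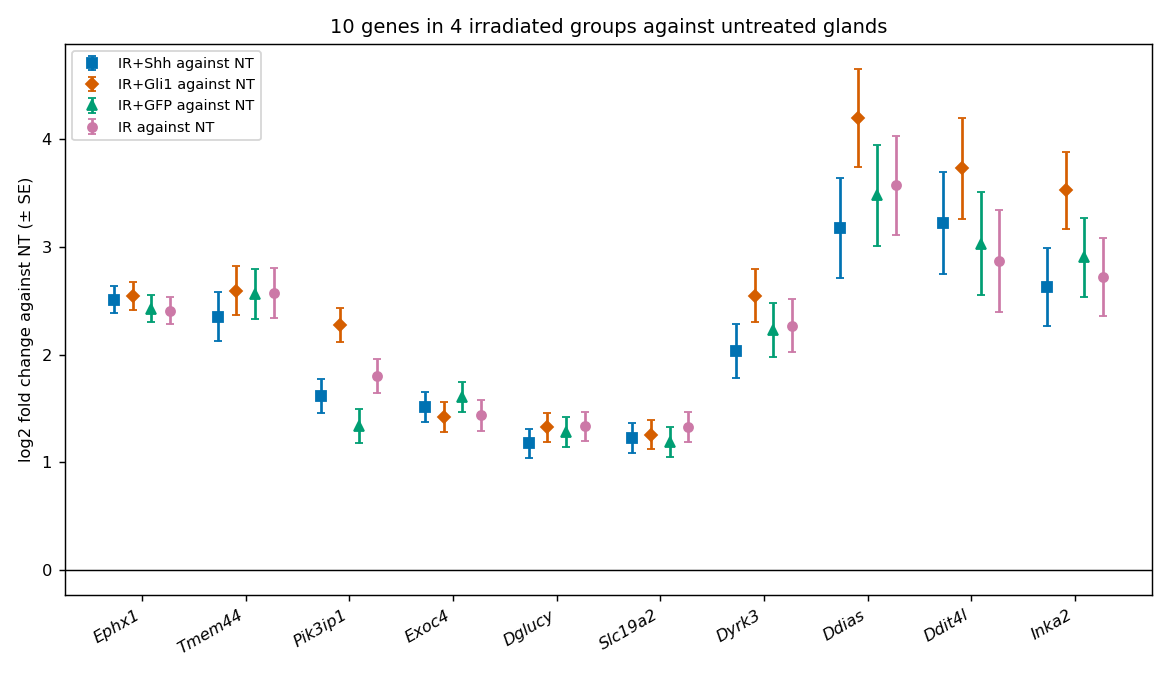
log2 fold change against NT (y axis, points with bars of ± SE) of the 10 genes in IR+Shh, IR+Gli1, IR+GFP and IR. The contrasts share the NT samples; Slc19a2, Dglucy and Exoc4 lie lowest in IR (1.33 to 1.44) and the point of Ddias is at 3.57, with one of the wider bars.

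The highest group mean among irradiated glands was 1.10-fold the lowest for Ephx1 and Slc19a2, 1.12-fold for Dglucy, 1.13-fold for Exoc4 and 1.18-fold for Tmem44. It was 1.42-fold for Dyrk3, 1.80-fold for Ddit4l, 1.85-fold for Inka2, 1.92-fold for Pik3ip1 and 2.02-fold for Ddias. IR+Gli1 was the highest group for these last 5 genes and also for Ephx1 and Tmem44. The highest group was IR+GFP for Exoc4 and IR for Dglucy and Slc19a2. GFP transfer itself was compared with irradiation alone as values only, since IR was used in choosing the genes: the log2 fold change of IR+GFP against IR had a median of -0.03 and ranged from -0.47 for Pik3ip1 to 0.18 for Inka2. In that contrast edgeR called 0 of 14304 genes (0%), and 298 (2.08%) had an unadjusted p under 0.05.

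That the 10 genes were high together in IR against NT follows from the rule that picked them. Over the 6 samples of IR+Shh, IR+Gli1 and IR+GFP, Pearson r of log2 CPM between pairs had a median of 0.40. It ranged from -0.58 to 0.99, with 9 of 45 pairs below 0. The RefSeq promoter windows (GRCm38.p6, 250 bases before to 50 after the start) were searched for the p53 response element on both strands. There were 11 windows for the 10 genes, with 2 for Inka2. An exact match to the p53 binding half-site, the 10-base p53 motif unit, stood in 3 of the 11 windows (27.3%), those of Inka2, Ddit4l and Exoc4, against 8.36% of all 32851 windows and 33.3% of the 30 windows of listed p53 targets. A pair of such units separated by 0 to 13 bases with at most 3 mismatches, the core C and G of both units intact, stood in 4 of 11 windows (36.4%), against 15.6% of all windows and 30% of those of listed targets; such a pair can overlap the exact units above. An exact pair was found in 0 of the 11 windows and 0.0731% of all. The letters CATG, a frequent centre of the unit, stood in 5 of 11 windows (45.5%) and 61.1% of all. The looser core of a pair, C and G of both units with no spacer and other letters free, stood in 11 of 11 windows (100%). It stood in 70.2% of all windows and in 93.3% of those of listed targets. The 11 windows held 53% to 72% G and C, above the median of 52.7% in all windows. The part of base composition in these shares was not tested, and no enrichment is read from them. A match is a description of letters in these windows and not a binding site.

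The 4 windows with such a pair are shown 5′ to 3′ on the gene's strand, with the best-matching pair in capitals. They are the Inka2 window at chr3:105705208-105705507, the Ddit4l window at chr3:137623422-137623721, the Exoc4 window at chr6:33248878-33249177 and the Dglucy window at chr12:100778807-100779106, all on the plus strand. The pair had 1 mismatch in Inka2 and 3 mismatches in each of the others.
Inka2: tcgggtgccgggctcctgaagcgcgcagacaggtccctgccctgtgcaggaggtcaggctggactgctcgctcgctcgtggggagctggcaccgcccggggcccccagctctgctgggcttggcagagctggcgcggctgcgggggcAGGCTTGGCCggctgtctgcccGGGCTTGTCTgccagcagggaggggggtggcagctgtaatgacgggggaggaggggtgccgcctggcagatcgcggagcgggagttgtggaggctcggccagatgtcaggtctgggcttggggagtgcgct
Ddit4l: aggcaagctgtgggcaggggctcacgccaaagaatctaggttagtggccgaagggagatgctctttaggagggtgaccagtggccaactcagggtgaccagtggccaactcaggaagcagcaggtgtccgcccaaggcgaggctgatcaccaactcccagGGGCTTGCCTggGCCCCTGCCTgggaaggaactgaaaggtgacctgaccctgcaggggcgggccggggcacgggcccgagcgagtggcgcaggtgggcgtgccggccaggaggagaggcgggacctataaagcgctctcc
Exoc4: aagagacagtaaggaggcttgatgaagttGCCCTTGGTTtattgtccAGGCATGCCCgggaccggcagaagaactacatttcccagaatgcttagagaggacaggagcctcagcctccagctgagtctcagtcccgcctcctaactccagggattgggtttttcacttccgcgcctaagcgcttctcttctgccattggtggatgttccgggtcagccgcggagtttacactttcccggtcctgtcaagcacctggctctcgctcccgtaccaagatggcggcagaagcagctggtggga
Dglucy: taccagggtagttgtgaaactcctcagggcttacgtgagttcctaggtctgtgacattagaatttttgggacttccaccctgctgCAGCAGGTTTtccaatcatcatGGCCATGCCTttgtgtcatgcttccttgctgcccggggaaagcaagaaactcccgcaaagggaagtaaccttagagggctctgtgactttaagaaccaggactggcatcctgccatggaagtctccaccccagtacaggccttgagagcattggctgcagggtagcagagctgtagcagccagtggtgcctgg
In Inka2 the units are 12 bases apart and the first begins 103 bases before the start; in Ddit4l they are 2 bases apart and begin 90 bases before it. Ephx1, Tmem44, Pik3ip1, Slc19a2, Dyrk3 and Ddias have neither an exact unit nor such a pair in their windows. Of these, the window of Pik3ip1 at chr11:3330481-3330780 (plus strand) is shown for comparison without capitals.
Pik3ip1: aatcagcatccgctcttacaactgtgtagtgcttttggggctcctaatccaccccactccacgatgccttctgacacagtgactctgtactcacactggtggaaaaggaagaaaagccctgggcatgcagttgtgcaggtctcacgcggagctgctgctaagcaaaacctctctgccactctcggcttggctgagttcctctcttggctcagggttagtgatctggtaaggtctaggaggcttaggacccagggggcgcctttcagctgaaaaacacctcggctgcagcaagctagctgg

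The rule that picked the genes used NT and IR only, so the samples of the 3 comparisons between irradiated groups lay outside it. Earlier results of these data were known at that choice. The spread behind each test was estimated over all 10 samples, NT and IR included. IR+Gli1 against IR+GFP asks what Gli1 transfer did beyond transfer of a reporter gene. Pik3ip1 rose, and the other 9 genes did not pass. For Pik3ip1 the reference IR+GFP was the lowest irradiated group, below IR at 21.4 ± 1.49 CPM (log2 -0.47 ± 0.15 in IR+GFP against IR, not tested). Pik3ip1 averaged 29.8 ± 6.10 CPM in IR+Gli1, against 15.5 ± 1.57 in IR+GFP (SD, n = 2 each), a ratio of 1.92 (log2 0.94 ± 0.15, 95% interval 0.60 to 1.28, edgeR adjusted p = 0.00641), and both IR+Gli1 samples lay above both IR+GFP samples. Thus 1 of the 10 genes rose and 0 fell, where 8.33% of all genes tested rose and 5.71% fell; 2008 genes (14%) changed in either direction. The log2 fold change of the 10 had a median of 0.22 and was above 0 in 9, against a median of 0.00 and 50.6% above 0 in all genes.

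Ddias, Ddit4l and Inka2 followed by size with log2 fold changes of 0.72 ± 0.36 (95% interval -0.10 to 1.53, edgeR adjusted p = 0.224), 0.70 ± 0.40 (-0.20 to 1.59, adjusted p = 0.280) and 0.62 ± 0.31 (-0.07 to 1.31, adjusted p = 0.212). For each of these 3 genes IR+Gli1 3 lay within the range of IR+GFP, and IR+Gli1 1 and 2 lay above it. Without IR+Gli1 3, Ddias passed at log2 1.15 (edgeR adjusted p = 0.0195) and Inka2 at 0.95 (0.0392). Without IR+Gli1 1 and 2 the values were 0.025 for Ddias (0.981), 0.42 for Ddit4l (0.689) and 0.14 for Inka2 (0.859). Ddit4l did not pass with any 1 sample left out, at log2 0.25 to 1.28 (edgeR adjusted p = 0.111 to 0.783). Dyrk3 was at 0.32 ± 0.22 with both IR+Gli1 samples above both IR+GFP samples, and edgeR did not call it (adjusted p = 0.391). The intervals of the other 5 genes lay on both sides of 0: -0.15 to 0.39 for Ephx1, -0.25 to 0.34 for Dglucy, -0.23 to 0.37 for Slc19a2, -0.49 to 0.13 for Exoc4 and -0.44 to 0.50 for Tmem44.

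The call of Pik3ip1 was lost without IR+GFP 1 and 2 (edgeR adjusted p = 0.0893) and in a fit of the 2 groups alone (0.0816). With total-count scaling all 10 genes rose, Exoc4 included (log2 0.59, edgeR adjusted p = 0.00379), while the median of all genes moved to 0.79; relative to that median 9 of 10 were higher and Exoc4 was lower.

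Markers of other cells moved with this comparison. All 7 listed T and NK cell genes had reads in both IR+Gli1 samples, and their sum was 77.1 and 29.8 CPM in IR+Gli1, against 1.92 CPM (Cd3e and Cd3g at 0) and 4.92 CPM (Cd8a at 0) in IR+GFP. The 7 macrophage genes summed to 225 and 227 CPM in IR+Gli1, against 75.6 and 109 in IR+GFP, and the 5 neutrophil and monocyte genes to 91.4 and 24.4 CPM in IR+Gli1, against 1.75 and 2.34 in IR+GFP, with Ly6g at 0 in all 4 samples and S100a8 and S100a9 at 0 in IR+GFP. The 6 granular convoluted tubule genes summed to 26416 and 57297 CPM in IR+Gli1, against 139619 and 130526 in IR+GFP. Pik3ip1 was higher in IR+Gli1 3 (34.1 CPM), the IR+Gli1 sample with the lower T and NK sum, than in IR+Gli1 1 and 2 (25.5 CPM). Tmem44 and Exoc4 were also higher in IR+Gli1 3. These orders depend on the scaling. As CPM of total gene reads, Pik3ip1 was at 44.5 in IR+Gli1 3 and 43.7 in IR+Gli1 1 and 2. On that scale Tmem44 (26.2 and 32.3) and Exoc4 (108 and 116) were lower in IR+Gli1 3. Ephx1, Dglucy, Slc19a2, Dyrk3, Ddias, Ddit4l and Inka2 were higher in IR+Gli1 1 and 2. That sample had the higher T and NK and neutrophil and monocyte sums, and the lower granular tubule sum. The part of these cells in the levels was not tested.

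**Figure D3:**
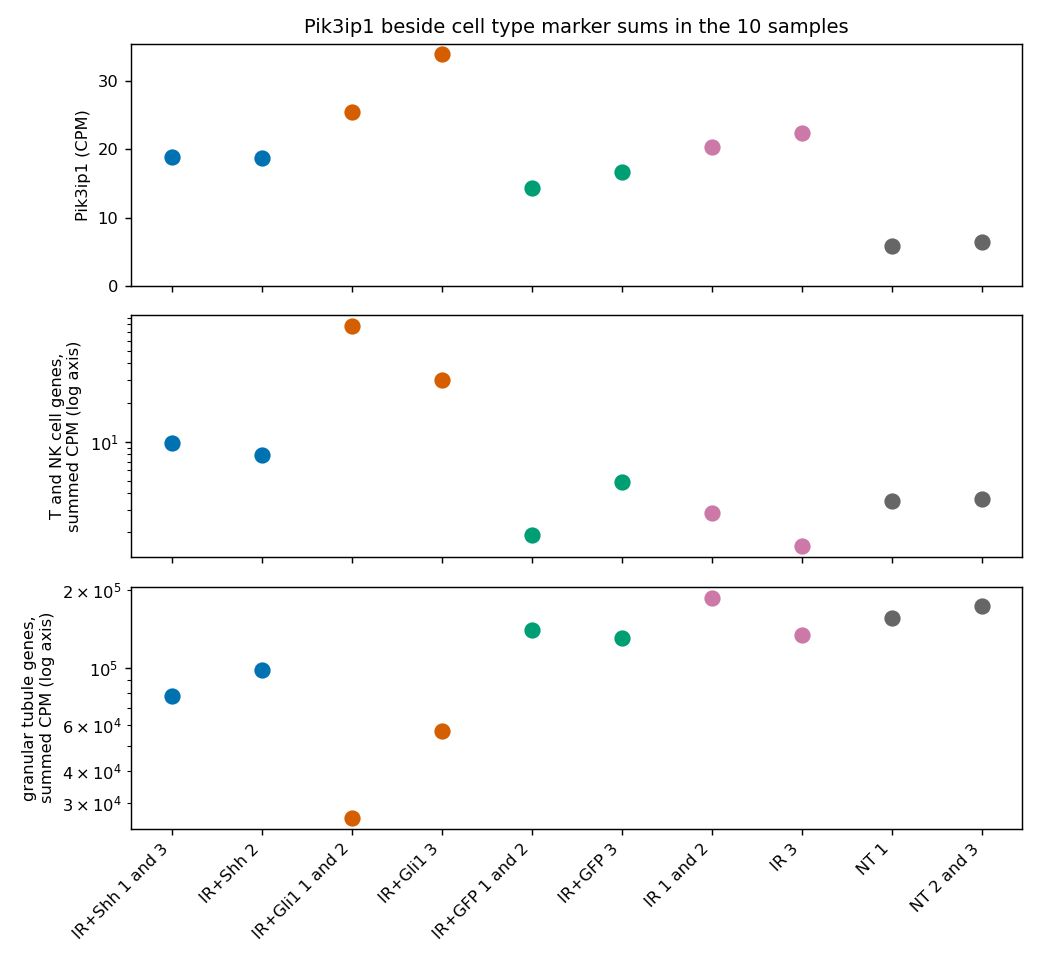
Pik3ip1 (top, CPM), the summed CPM of 7 T and NK cell genes (middle, log axis) and of 6 granular convoluted tubule genes (bottom, log axis) in each of the 10 samples. IR+Gli1 is highest in the top and middle panels and lowest in the bottom one. Within IR+Gli1 the order of the 2 samples differs between Pik3ip1 (25.5 and 34.1) and the T and NK sum (77.1 and 29.8). As CPM of total gene reads, without TMM scaling, Pik3ip1 was at 43.7 and 44.5 in these samples.

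IR+Shh against IR+GFP asks the same of Shh transfer. None of the 10 genes passed, and edgeR called 0 of 14304 genes (0%), with 873 (6.1%) at an unadjusted p under 0.05; DESeq2 called 33 genes and limma-voom 0, none of them among the 10. The log2 fold changes of the 10 ranged from -0.31 for Ddias to 0.28 for Pik3ip1, with a median of -0.10, and 4 were above 0, against 50.3% of all genes. Pik3ip1 was at 18.8 ± 0.0927 CPM in IR+Shh and 15.5 ± 1.57 CPM in IR+GFP (SD, n = 2 each; 95% interval -0.06 to 0.62, edgeR adjusted p = 0.825), and the samples did not overlap. The interval was -0.19 to 0.35 for Ephx1 and -1.15 to 0.54 for Ddias.

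IR+Shh against IR+Gli1 compares the transfers directly. Pik3ip1 was the 1 gene of the 10 that passed, and it was lower in IR+Shh: 18.8 ± 0.0927 CPM in IR+Shh and 29.8 ± 6.10 CPM in IR+Gli1 (SD, n = 2 each), 1.59-fold lower (log2 -0.66 ± 0.15, 95% interval -0.99 to -0.33, edgeR adjusted p = 0.0308). Among all genes 4.98% fell and 2.77% rose (1109 genes, 7.75%). The median of the 10 was -0.37, with 1 above 0, against 48% of all genes. In 6 of the 10 both IR+Shh samples lay below both IR+Gli1 samples, which was so in 29.8% of all genes. Such a share is not given for the other comparisons between irradiated groups, and nothing is read from this count. Ddias (log2 -1.02 ± 0.36, 95% interval -1.84 to -0.21), Inka2 (-0.90 ± 0.31, -1.59 to -0.21) and Dyrk3 (-0.51 ± 0.22, -1.02 to -0.01) had intervals below 0 and did not pass after adjustment over all genes (edgeR adjusted p = 0.114, 0.104 and 0.182). Without IR+Gli1 3, Ddias (log2 -1.46, edgeR adjusted p = 0.00820) and Inka2 (-1.23, 0.0161) passed. Without IR+Gli1 1 and 2 they were at -0.33 (0.631) and -0.42 (0.4998).

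The Pik3ip1 call was lost without IR+Gli1 3 (edgeR adjusted p = 0.0594), without IR+Shh 1 and 3 (0.186), without IR+Shh 2 (0.183), without IR+GFP 3 and IR+Gli1 3 together (log2 -0.43, 0.0530) and in a fit of the 2 groups alone (0.107). The T and NK sum was 9.70 and 7.90 CPM in IR+Shh and 77.1 and 29.8 CPM in IR+Gli1, and the granular tubule sum 77948 and 98387 CPM in IR+Shh and 26416 and 57297 CPM in IR+Gli1; their part in the result was not tested.

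**Figure D4:**
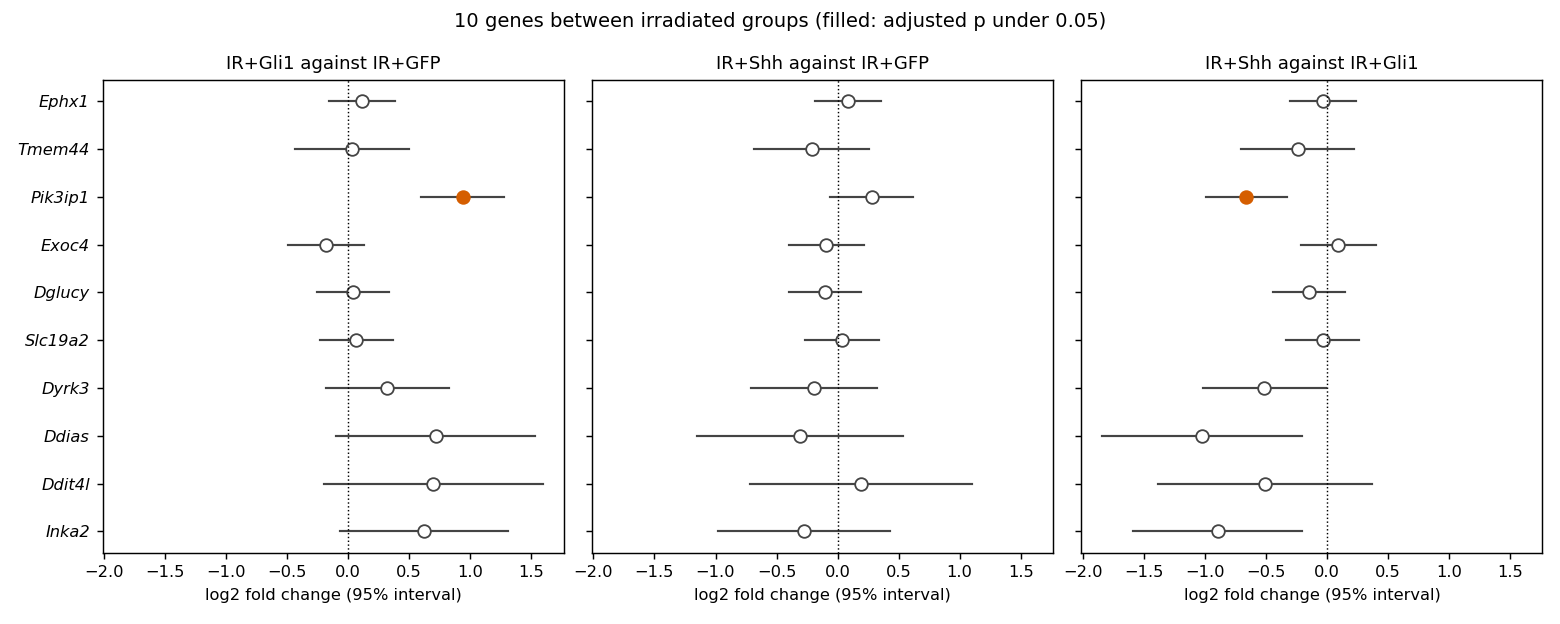
log2 fold change (x axis) with its 95% interval (lines) of the 10 genes in the 3 comparisons between irradiated groups; filled points passed an adjusted p of 0.05. Pik3ip1 passed in IR+Gli1 against IR+GFP (0.94) and in IR+Shh against IR+Gli1 (-0.66), and no gene passed in IR+Shh against IR+GFP.

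The 10 genes were then set beside genes of the same families, complexes or pathways and beside the p53 targets outside which they stand. In IR against NT, 15 of 122 tested list genes rose and 0 fell, where 0.517% of all genes rose and 0.168% fell. Of these, 13 were among the 28 p53 targets, led by Eda2r and the stress protein gene Trp53inp1. Eda2r was at 22.3 ± 2.78 CPM in IR, against 2.59 ± 0.243 in NT (SD, n = 2 each, log2 3.10 ± 0.18, edgeR adjusted p = 0.000129). Trp53inp1 was at 94.4 ± 1.23 CPM in IR, against 24.7 ± 0.694 in NT (log2 1.94 ± 0.14, edgeR adjusted p = 0.000695). The p53 list had earlier been seen to move in these samples, so its count is no independent evidence. It holds Sesn2, a leucine-sensing inhibitor of mTORC1 (log2 1.49 ± 0.15), which was the 1 of 13 mTORC1 inhibitors that rose, and the pore-forming Bax (1.25 ± 0.18), which with Bcl2l11 (Bim; 0.69 ± 0.12, edgeR adjusted p = 0.0360) made up the 2 of 15 apoptosis regulators that rose.

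Oplah, which encodes 5-oxoprolinase, was the 1 of 5 tested genes of D-amino acid and glutamate metabolism that rose. Its level was 53.5 ± 4.38 CPM in IR, against 29.9 ± 1.55 in NT (SD, n = 2 each, log2 0.84 ± 0.14, edgeR adjusted p = 0.0311). None of the 8 other exocyst subunits passed, nor any of 18 genes of epoxide and xenobiotic metabolism, 11 of thiamine transport and use, 15 of PI3K and AKT signalling, 7 DYRK and HIPK kinases or 6 PAK kinases with Inka1. The largest values in those lists were -0.44 ± 0.10 for Exoc5 (log2, edgeR adjusted p = 0.0958), -1.45 ± 0.44 for Nqo1 (0.153), 0.58 ± 0.21 for Hacl1 (0.200), -0.89 ± 0.28 for Pik3cg (0.167), 0.68 ± 0.19 for Dyrk1b (0.133) and 0.54 ± 0.34 for Pak3 (0.451). Leaving out 1 sample changed the count of 15 to between 5 (without IR 3) and 18 (without NT 1), with 7 without NT 2 and 3 and 8 without IR 1 and 2; Bax, Oplah and Bcl2l11 did not pass without IR 3, without NT 2 and 3 or without IR 1 and 2, and Sesn2 did not pass without IR 3 (edgeR adjusted p = 0.0511), while Eda2r and Trp53inp1 passed in each of these fits.

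**Figure D5:**
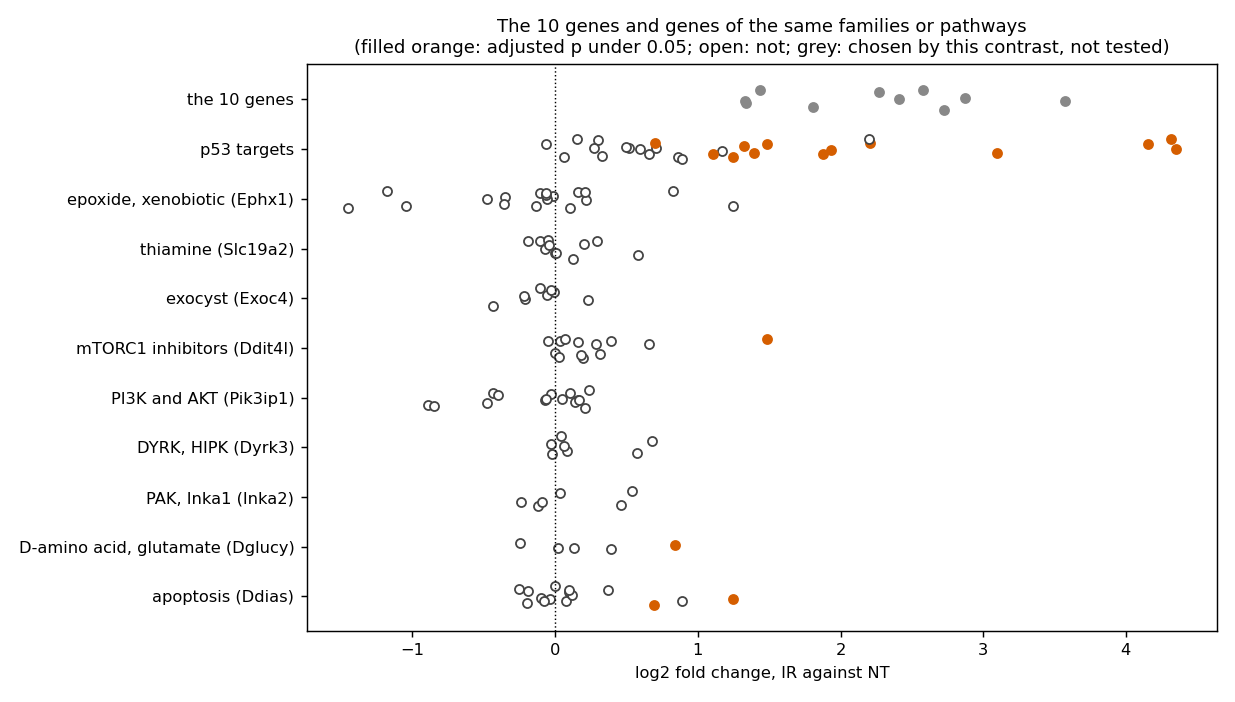
log2 fold change in IR against NT (x axis) of the 10 genes (grey, chosen by this contrast) and of tested genes in 10 lists of p53 targets and of families or pathways of the 10 genes (named in brackets); each point is a gene, orange ones passed an adjusted p of 0.05. Outside the p53 list, Sesn2 (also a p53 target), Oplah, Bax (also a p53 target) and Bcl2l11 are filled.

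In IR+Gli1 against IR+GFP, 14 of the 122 list genes rose and 5 fell, where 8.33% of all genes rose and 5.71% fell. Among p53 targets 4 of 28 rose and 0 fell, led by Psrc1, a microtubule protein gene (7.30 ± 3.56 CPM in IR+Gli1, against 1.78 ± 0.101 in IR+GFP, SD, n = 2 each; log2 2.05 ± 0.38, edgeR adjusted p = 0.00967), and Cdkn1a, the gene of the cell cycle inhibitor p21 (96.2 ± 40.4 and 30.6 ± 9.42 CPM; 1.66 ± 0.30, 0.0131). In the PI3K list of Pik3ip1, 3 of 15 rose and 0 fell; Inpp5d (log2 1.47 ± 0.22, edgeR adjusted p = 0.00531) and Pik3cd (1.73 ± 0.41, 0.0251) encode a phosphatase and a PI3K catalytic subunit of blood cells, and the T and NK, macrophage and neutrophil sums given above moved with them. Apoptosis regulators rose in 6 of 15 and fell in 0, led by Birc3 (log2 0.80 ± 0.15) and Bid (1.89 ± 0.45). Gclc, for glutathione synthesis (log2 -1.26 ± 0.16), and Cyp2b10 (-1.80 ± 0.29) were the 2 of 18 xenobiotic genes that fell, while 2 others rose. Subunit genes of thiamine-dependent dehydrogenases, Bckdha (-0.62 ± 0.16) and Pdha1 (-0.49 ± 0.13), were the 2 of 11 thiamine genes that fell; with total-count scaling neither passed and both values were above 0. Castor1, an arginine-sensing inhibitor of mTORC1, fell (-0.89 ± 0.20) and did not pass with total-count scaling. None of the exocyst, DYRK and HIPK, PAK or D-amino acid and glutamate genes passed. Without IR+GFP 1 and 2, 1 of the 122 list genes passed.

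In IR+Shh against IR+GFP, 0 of the 122 list genes passed in edgeR, DESeq2 or limma-voom. In IR+Shh against IR+Gli1, 3 rose and 12 fell, where 2.77% of all genes rose and 4.98% fell, among them 5 of 28 p53 targets that fell, led by Phlda3, an inhibitor of AKT (41.9 ± 1.38 CPM in IR+Shh and 79.8 ± 11.2 CPM in IR+Gli1, SD, n = 2; log2 -0.93 ± 0.16, edgeR adjusted p = 0.0157), and Cdkn1a (-1.93 ± 0.31, 0.0173). Inpp5d fell (-0.95 ± 0.21), the 1 of 15 PI3K genes that passed, and Bcl2l1 (-0.42 ± 0.09) and Birc3 (-0.65 ± 0.15) led 5 of 15 apoptosis regulators that fell. Gclc (0.80 ± 0.16), Pdha1 (0.50 ± 0.13) and the D-aspartate oxidase gene Ddo (0.85 ± 0.19) rose, and none of these 3 passed with total-count scaling. In both comparisons with IR+Gli1, 0 list genes passed in a fit of the 2 groups alone, and in IR+Shh against IR+Gli1 0 passed without IR+Shh 1 and 3 or without IR+Shh 2.

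Outside the 10, the genes whose log2 CPM followed the mean standardised log2 CPM of the 10 most closely over the 10 samples were Sesn2 (Pearson r = 0.991), Eda2r (0.991), Polk (0.985), Tnfrsf10b (0.981) and Rnf169 (0.979). These r values describe likeness, carry no test, and rest on samples that fall into NT and irradiated glands. The first 4 are in the p53 list: Polk encodes a translesion DNA polymerase and Tnfrsf10b a death receptor. Rnf169 encodes a ubiquitin ligase that binds at DNA double-strand breaks; it was at 21.8 ± 1.501 CPM in IR+Shh, 26.3 ± 3.96 in IR+Gli1, 21.03 ± 1.28 in IR+GFP and 22.3 ± 0.687 in IR, against 10.2 ± 1.05 CPM in NT (SD, n = 2 each). Cdkn1a had another course, at 25.3 ± 3.11 CPM in IR+Shh, 96.2 ± 40.4 in IR+Gli1, 30.6 ± 9.42 in IR+GFP, 23.1 ± 1.26 in IR and 1.28 ± 0.158 in NT (SD, n = 2 each), with IR+Gli1 above the other irradiated groups.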

How the data were processed

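RNA of mouse submandibular glands was measured in 15 libraries. The authors deposited raw counts of reads per Ensembl gene for each library. Per the submitters' processing notes the tools were TopHat2 2.0.13, Bowtie 0.12.2, DESeq2 and HTSeq 0.10.0, with mm10 and GRCm38 as builds; how strand was treated and the annotation release are not given in the sources used here. Reads assigned to no gene (6.98% to 13.9% of the reads listed in a library) were left out. Symbols came from GENCODE M21.

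Libraries of a group that differed by less than sampling noise (mean chi-square per gene under 1, over genes whose reads in the 2 libraries summed to 20 or more) were merged by the rounded mean, which left 10 samples. Same-numbered libraries of IR+GFP and IR+Gli1 deviated together (r = 0.371, 0.354 and 0.378), but libraries 1 and 2 of both groups were near-identical, so these are not 3 independent pairs and no block was used. All samples were fitted in edgeR 4.0.16 (R 4.3.3) with TMM scaling, filterByExpr (14304 genes tested), 1 mean per group, robust quasi-likelihood tests, a prior count of 0.125 for log2 values and Benjamini-Hochberg adjustment over all genes tested (two-sided, threshold 0.05). There were 5 residual degrees of freedom. Standard errors are the log2 coefficient divided by the square root of F, and 95% intervals use the t distribution. On simulated data for IR+Gli1 against IR+GFP (14304 genes, 200 changed), 46% of 2-fold and 84% of 4-fold changes were recovered.

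The 10 genes and all lists were chosen with earlier results of these data known. Named genes were the 10 genes, up to 2 genes that passed per list and comparison by smallest p, for lists with none in IR against NT the gene with the largest log2 fold change, and the 5 genes most like the 10. Alternatives were DESeq2 size factors, total-count and upper-quartile scaling, no filter, 1 CPM in 3 libraries, DESeq2 1.42.0, limma-voom (limma 3.58.1), the compared groups alone, 15 separate libraries with and without a replicate block, the deeper library of each pair and leaving out samples; a block for IR+GFP and IR+Gli1 in merged samples was added after seeing the data. RefSeq promoter windows (GRCm38.p6) matched all 10 genes.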

Additional observations from a re-analysis of the deposited data

Results flagged for a closer look

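Pik3ip1 was the 1 of the 10 genes for which the effects of the transferred genes, both set against IR+GFP, differed by a test of the difference itself. In IR+Shh against IR+Gli1 its log2 fold change was -0.66 ± 0.15 (edgeR adjusted p = 0.0308), lower in both IR+Shh samples than in both IR+Gli1 samples. This is the comparison given above, in which IR+GFP cancels out, and not a further test. The call was lost in a fit of the 2 groups alone (edgeR adjusted p = 0.107). It was also lost in the fits with samples left out that are listed with that comparison. With 1 sample left out the log2 fold change was -0.85 to -0.43. Groups of 2 samples were too small to look for single samples that stand apart.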

How the results depend on the processing

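With total-count scaling, 10 of the 10 genes passed in IR+Gli1 against IR+GFP and 10 in IR+Shh against IR+Gli1, where the medians of all genes moved by 0.79 and -0.67; counts over all genes were 9745 (9656 higher, 89 lower) and 8112 (85 higher, 8027 lower), counts over the lists 99 and 78, and the median of the 10 in IR+Gli1 against NT was 3.32. Exoc4 changed sign in IR+Gli1 against IR+GFP (log2 0.59), IR+Shh against IR+GFP (0.049) and IR+Shh against IR+Gli1 (-0.54), and Dglucy in IR+Shh against IR+GFP (0.041). In fits of the compared groups alone the counts were 0 of the 10, 1 of all genes and 0 of the lists in IR+Gli1 against IR+GFP, 24 of all genes in IR+Shh against IR+GFP, and 0, 9 and 0 in IR+Shh against IR+Gli1. Without the low-count filter, IR+Gli1 against IR+GFP gave 36 list genes, IR+Shh against IR+GFP 439 genes and 4 list genes, IR+Shh against IR+Gli1 3 of the 10, 2632 genes and 30 list genes, and IR against NT 31 list genes. DESeq2 called 33 genes in IR+Shh against IR+GFP.

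As 15 separate libraries without the replicate block, which counts near-identical libraries as independent, IR+Gli1 against IR+GFP gave 4 of the 10, 6518 genes and 58 list genes, IR+Shh against IR+GFP 538 and 6, IR+Shh against IR+Gli1 4, 6065 and 58, and IR against NT 44 list genes. With the replicate block these were 4, 6495 and 58, then 433 and 5, then 4, 6092 and 58, and 44. A number was not taken to pair libraries: 4 of 30 same-numbered pairs had r over 0.1, and 7 of 15 libraries had their best correlation within their own number. A block for IR+GFP and IR+Gli1 in the merged samples called Pik3ip1 (log2 0.93, edgeR adjusted p = 0.00147), 2424 genes and 24 list genes.

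Without IR+GFP 3 and IR+Gli1 3 together, the counts were 4 of the 10 in IR+Gli1 against IR+GFP (Pik3ip1, Ddias, Ddit4l and Inka2) among 2547 genes, 2 genes in IR+Shh against IR+GFP, and 2 of the 10 (Ddias and Inka2), 2403 genes and 32 list genes in IR+Shh against IR+Gli1; Slc19a2 was at -0.039 in IR+Shh against IR+GFP. Leaving out 1 sample, which assumes that a lone sample varies like the other groups, gave 0 to 3 of the 10, 91 to 2997 genes and 1 to 33 list genes in IR+Gli1 against IR+GFP (lowest without IR+GFP 1 and 2, highest without IR+Gli1 3), 0 throughout in IR+Shh against IR+GFP, 0 to 2, 0 to 2288 and 0 to 29 in IR+Shh against IR+Gli1, and 5 to 18 list genes in IR against NT. The medians of the 10 against NT ranged from 2.09 to 2.29 in IR+Shh, 2.35 to 2.59 in IR+Gli1, 2.21 to 2.39 in IR+GFP and 2.16 to 2.50 in IR, and IR+GFP against IR from -0.087 to 0.083.

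Some small uncalled values changed sign when 1 sample was left out. In IR+Gli1 against IR+GFP the ranges were -0.067 to 0.12 for Tmem44, -0.063 to 0.16 for Slc19a2 and -0.096 to 0.15 for Dglucy. In IR+Shh against IR+GFP they were -0.25 to 0.78 for Ddit4l, -0.13 to 0.18 for Slc19a2, -0.042 to 0.19 for Ephx1 and -0.24 to 0.044 for Exoc4. In IR+Shh against IR+Gli1 they were -0.15 to 0.088 for Ephx1, -0.059 to 0.24 for Exoc4 and -0.19 to 0.13 for Slc19a2. The causes were not tested. Reads of 6 to 23 per NT sample limit Ddias, Ddit4l and Inka2 most.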
